A study of Mus musculus with 20 samples.

Results

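Gene expression was compared between 5 liver libraries labelled LXRα-/- and 5 WT libraries, all from mice on chow. The 10 libraries were chosen by their titles out of 20 in the series, and all genes of the deposited table entered. The other 10 libraries, labelled LXRα-/- and WT on a high-fat diet (HFD), helped to estimate the spread and serve below to show where chow differs. Every group is at week 24 and is labelled liver, with no added agent, and the diet and the genotype are the factors named. The genotype field calls the mice titled LXRα-/- an LXR knockdown. The labels give no strain, sex, age beyond the week, allele design or number of founder animals, and WT chow alone carries an extra letter B in its library code, which is not explained. The tissue field says liver, but the extraction protocol mentions adipose RNA. Nothing in the labels ties a library to its own animal, so the p-values speak of the spread among libraries, which may be technical.

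LXRα is a nuclear receptor that binds oxysterols and works as a partner of the retinoid X receptors. It is encoded by Nr1h3, and its sister receptor LXRβ by Nr1h2. In liver and macrophages it is known for switching on cholesterol efflux, biliary sterol excretion, lipogenesis and phospholipid remodelling, and for holding back inflammatory genes.

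Nr1h3 (ENSMUSG00000002108, chromosome 2, 91184061 to 91202834) was read first as a check of the labels. Its FPKM, fragments scaled to gene length and to the size of the library, was 46.6, 66.1, 58.9, 7.89 and 59.8 in the libraries labelled LXRα-/- and 40.1, 32.8, 35.9, 41.3 and 45.3 in WT. Library 4 lay below every WT library, and the other 4 labelled LXRα-/- lay above every WT library. The means of 47.9 ± 23.4 and 39.1 ± 4.88 FPKM (SD, n = 5 each) did not pass a two-sided exact permutation test (p = 0.492). Without library 4 the difference was 18.8 FPKM, higher in the libraries labelled LXRα-/- (exact permutation p = 0.00794, the smallest the test can give). Counts per gene carry no exon detail, and a shortened transcript cannot be told from a whole one, so the direction of each result below rests on the labels.

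The partner and sister receptors were read beside it. Rxra (chromosome 2, 27676440 to 27762957), the main hepatic RXR, had 148, 184, 174, 235 and 245 CPM (counts scaled to a common library size) in the libraries labelled LXRα-/-, against 507, 504, 464, 576 and 585 CPM in WT. The groups did not overlap, and Rxra fell by 1.42 on the log2 scale (SE 0.16, edgeR adjusted p = 1.24e-06). Rxrb fell as well, by 1.35 (SE 0.24, adjusted p = 0.000166). Nr1h2 had 47.8 ± 15.4 CPM in the libraries labelled LXRα-/- and 30.7 ± 7.88 CPM in WT libraries (SD, n = 5 each), and did not pass the threshold (adjusted p = 0.0698), although it did under other scalings and with some libraries left out. On HFD the log2 fold change of Rxra was -0.15 and it was not called, and the test of the difference between diets was (adjusted p = 0.000582).

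The groups differed in what kind of RNA the counts came from. Genes of the mitochondrial genome took 22% ± 4.77 of the counts in the libraries labelled LXRα-/- and 4.71% ± 0.743 in WT libraries (SD, n = 5 each). The ranges were 18.2% to 29.6% and 3.89% to 5.67%, and the 10 HFD libraries held 9.77% to 20.4%. Long noncoding RNAs took 2.13% ± 1.71 in the libraries labelled LXRα-/- and 0.585% ± 0.135 in WT, and small RNA genes 0.348% ± 0.0453 and 0.119% ± 0.0248. All 3 shares had groups that did not overlap (two-sided exact permutation test, p = 0.00794, adjusted 0.00992 over 5 shares). Nuclear protein-coding genes made up the rest in the main, with 65.6% ± 8.73 in the libraries labelled LXRα-/- and 92.1% ± 1.16 in WT. Whether these shares take part in the gene results was not tested by the comparison itself, and the fit that holds the mitochondrial share as a covariate is given with the counts below.

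**Figure D1:**
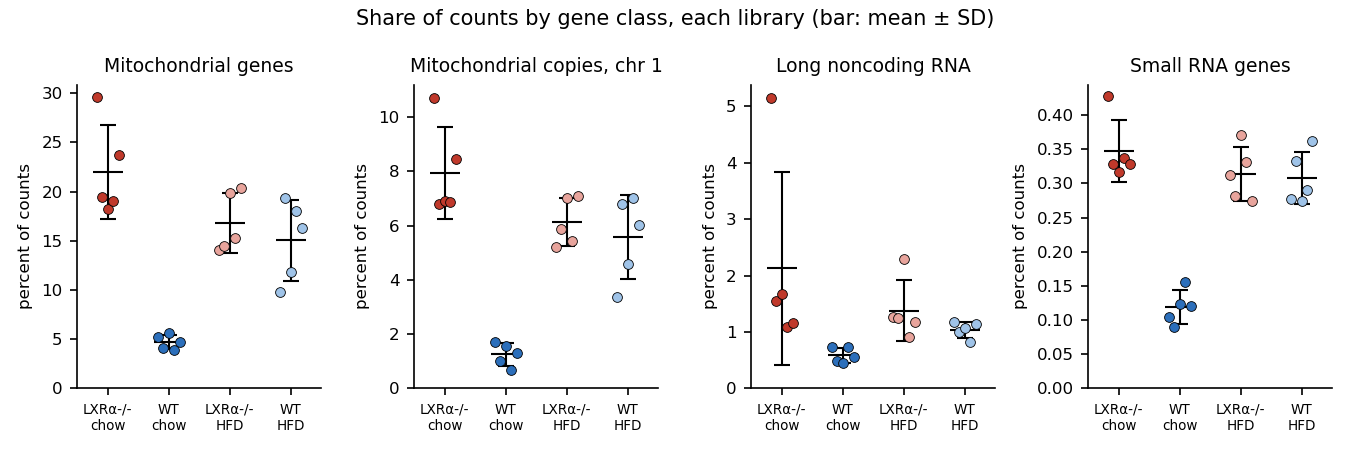
Percent of all counts taken by 4 gene classes (vertical axes), with 1 point per library for labelled LXRα-/- and WT on chow and then on HFD, and bars for the mean ± SD (n = 5 each). WT chow is the low group in each panel, at no more than 5.67% for mitochondrial genes, while the libraries labelled LXRα-/- on chow start at 18.2% and HFD libraries lie between 9.77% and 20.4%.

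Near-identical copies of mitochondrial genes on a nuclear chromosome also took a larger share of counts in the libraries labelled LXRα-/-. A stretch of chromosome 1 (24611535 to 24616197) holds 7 of these copies, which together took 7.94% ± 1.68 of the counts in the libraries labelled LXRα-/- and 1.25% ± 0.417 in WT libraries (SD, n = 5 each). Gm28437, which matches mt-Co3 at 100% of 783 bases, took 2.16% and 0.264% on average. Gm10925, a match to mt-Atp6 at 100%, took 1.43% and 0.161%. Without these copies, the share of pseudogenes was 1.92% ± 0.843 in the libraries labelled LXRα-/- and 1.20% ± 0.171 in WT. Reads of the copies and of the mitochondrial genes cannot be told apart at the gene level, and these copies were named after their values were seen.

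Over the whole transcriptome, 8197 of 18905 genes had an adjusted p under 0.05 by the quasi-likelihood test of edgeR, which is 43.4% of them. In the libraries labelled LXRα-/-, 4225 genes rose (22.3%) and 3972 fell (21%). A change of at least 2-fold was seen for 5722 of the called genes, and the median log2 fold change of all genes tested was 0.08. For 5530 genes (29.3%) the 5 libraries labelled LXRα-/- did not overlap the 5 WT libraries. Counts per chow library totalled 81413135 to 108889938, so counting error is small for all but scarce genes. Leaving out any 1 chow library left 7400 to 8119 calls, and leaving out libraries 1 and 4 labelled LXRα-/-, which stand apart in long noncoding RNA and in Nr1h3, left 7189 (an alternative chosen after seeing the data). With the mitochondrial share of each library as a covariate, 182 genes were called, 64 higher and 118 lower. On chow that share does not overlap between the groups, so in that fit it is told apart from genotype only by its spread within groups and on HFD.

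The 15 other libraries show which chow group the contrast turns on. WT chow lay outside all 15 other libraries for 2703 genes (14.3%), above them for 1653 (8.74%) and below them for 1050 (5.55%), and 2654 of these were called, which is 32.4% of the calls. The libraries labelled LXRα-/- on chow lay outside the other 15 for 22 genes (0.116%). All 10 libraries labelled LXRα-/- were apart from all 10 WT libraries for 267 genes (1.41%), of which 265 were called on chow, 186 higher and 79 lower. On HFD 86 genes were called (0.455%), 48 higher (0.254%) and 38 lower (0.201%), and 66 of them were also called on chow, 60 with the same sign. The genotype by diet interaction, which tests the difference between the chow and HFD contrasts, was called for 3661 genes (19.4%), among them 3506 of the chow calls (42.8%). Of these calls 1936 (10.2% of the genes tested) had the lower fold change on chow. A principal component with 41.1% of the variance put the 5 WT chow libraries at one end, with the WT libraries on HFD between them and the 10 labelled LXRα-/-.

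Gene classes moved unequally. Of 1795 long noncoding RNA genes tested 537 rose and 84 fell, with a median log2 fold change of 0.86. Of 177 small RNA genes 104 rose and 9 fell (median 2.16), and of 36 mitochondrial genes 32 rose and none fell (median 2.03). Nuclear protein-coding genes were close to balanced, with 2936 rises and 3411 falls among 14413 (median -0.01). The background for each count is the 22.3% of all genes that rose and the 21% that fell.

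**Figure D2:**
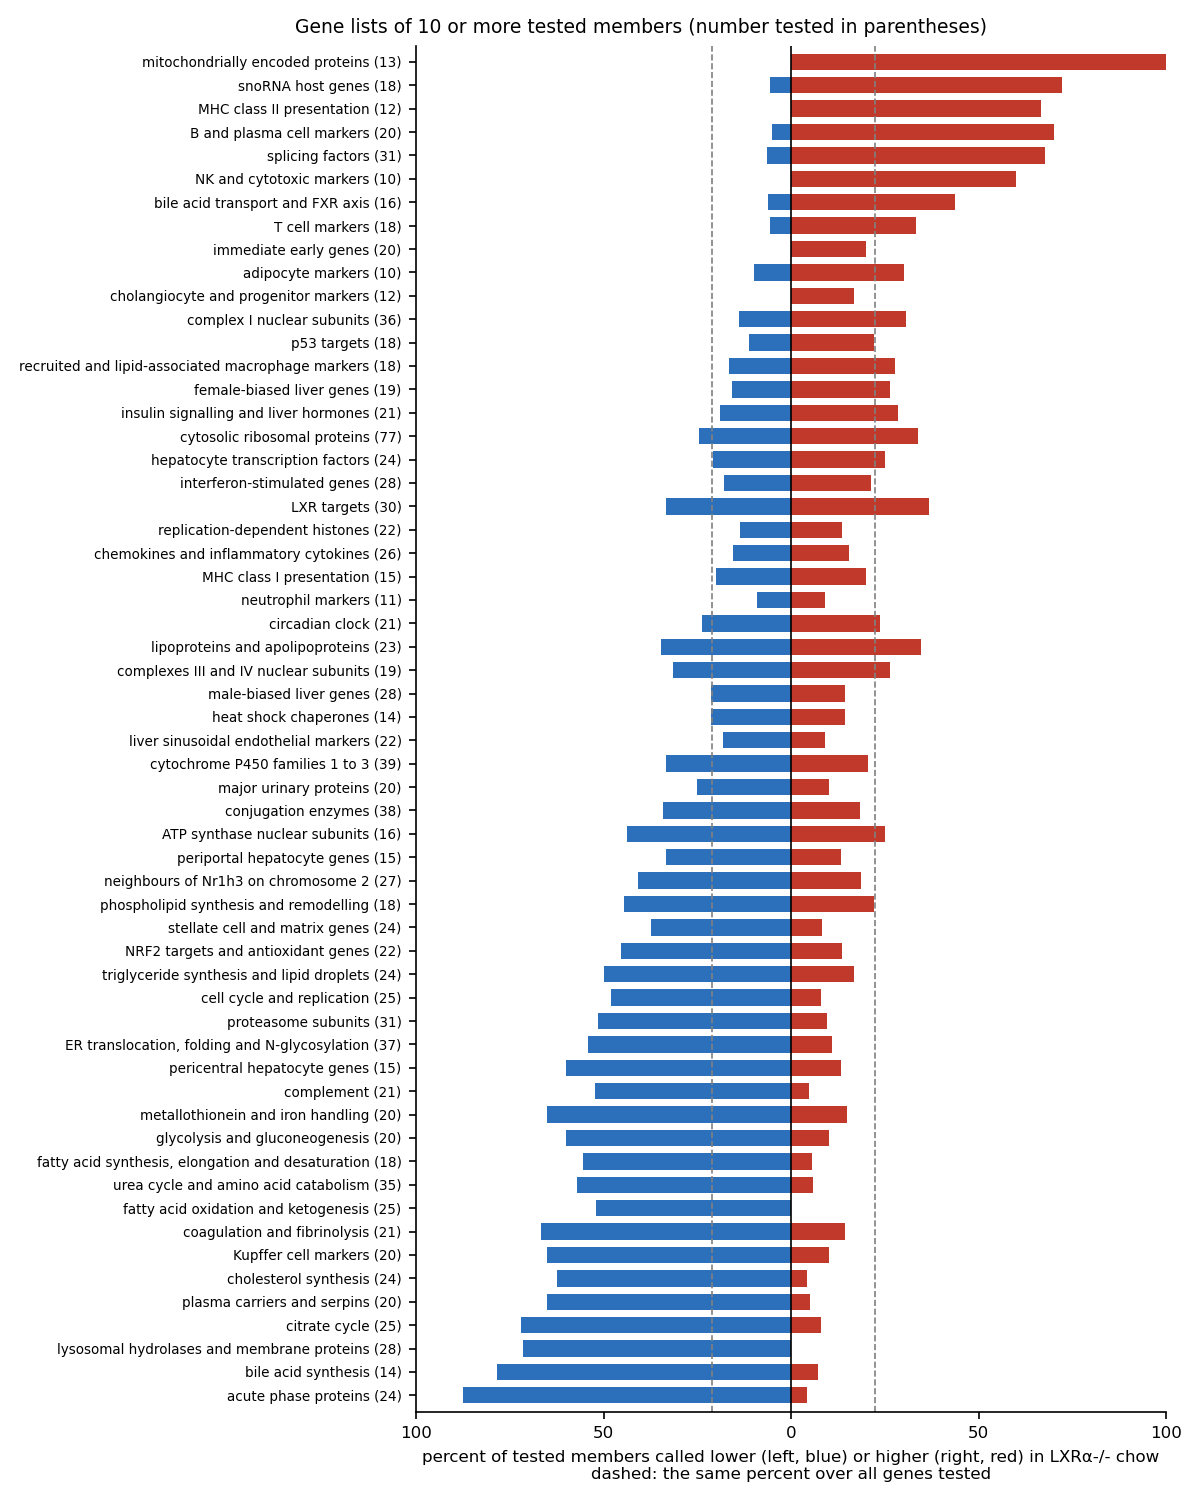
Percent of tested members that were lower (left) or higher (right) in the libraries labelled LXRα-/- on chow, past an edgeR adjusted p of 0.05. Gene lists with at least 10 tested members are shown. They are ordered by the share of members that rose minus the share that fell. Dashed lines mark the percent over all genes. Mitochondrially encoded proteins head the plot with 13 of 13 higher, and acute phase proteins close it with 21 of 24 lower.

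Known LXR target genes moved in both directions. Of 30 tested targets 11 rose and 10 fell, with a median log2 fold change of 0.21 against 0.08 for all genes. Without libraries 1 and 4 the counts were 9 and 9. Among sterol transporters, Abca1, which loads cholesterol onto apolipoprotein A-I, had 54.7 ± 6.03 CPM in the libraries labelled LXRα-/- and 35.0 ± 17.9 CPM in WT (SD, n = 5 each; log2 fold change 0.64, SE 0.26, adjusted p = 0.0492) and lost its call under 11 of 21 alternatives. Abca7 rose by 0.87 on the log2 scale (SE 0.21, adjusted p = 0.00223). Abcg5 and Abcg8, which form the pump for biliary sterols, had log2 fold changes of 0.70 and -0.02, and Abcg1, the transporter that feeds HDL, of 0.30, none past the threshold. Gramd1b, a carrier of cholesterol from the plasma membrane, rose by 1.12 (adjusted p = 0.00493), and the sign of Gramd1b and of Abca7 turned in the fit with the mitochondrial covariate (-0.18 and -0.19).

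The lipogenic arm of the receptor was mixed. Srebf1, which encodes the lipogenic factor SREBP-1, had 283, 206, 187, 282 and 144 CPM in the libraries labelled LXRα-/- and 69.9, 56.8, 271, 115 and 231 CPM in WT. The groups overlapped and Srebf1 was not called (log2 fold change 0.57, adjusted p = 0.192). Fasn, fatty acid synthase, was also not called, at -0.08 (SE 0.50, adjusted p = 0.914). Mlxipl, which encodes the carbohydrate-response factor ChREBP, rose by 1.26 on the log2 scale (SE 0.28, adjusted p = 0.00119). Scd1, the main hepatic stearoyl-CoA desaturase, fell by 1.80 (SE 0.54, adjusted p = 0.0113), with library levels that overlapped at 506 to 4520 CPM in the libraries labelled LXRα-/- and 1050 to 15200 CPM in WT, and it was not called in the 10 chow libraries alone (adjusted p = 0.0543). Lpcat3, which puts polyunsaturated chains into phospholipids, fell by 1.29 (SE 0.28, adjusted p = 0.000932). Acaca, acetyl-CoA carboxylase, fell by 0.70 (adjusted p = 0.0249) and lost the call without WT library 5 (adjusted p = 0.133). Elovl5, a fatty acid elongase, was not called, at -0.86 (adjusted p = 0.0667). Pnpla3, a lipid droplet protein, had 0 to 0.0635 CPM in the libraries labelled LXRα-/- and 0 to 3.82 CPM in WT, and its fall (adjusted p = 0.00374) was by 5.27 on the log2 scale, or by 4.27 without WT library 5.

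Among targets that act on lipoproteins, 4 of the 6 described here rose and the other 2 were not called. The gene cluster of Apoe and Apoc genes on chromosome 7 did not move as a block. Apoc4 rose by 1.70 on the log2 scale (adjusted p = 1.97e-05), Apoc1 by 1.04 (adjusted p = 0.00362) and Apoc2 by 2.43 (adjusted p = 0.000749), while Apoe was not called at 0.13. With the mitochondrial share as a covariate Apoc2 was -0.06 and not called (adjusted p = 0.987). Apoc2 and Apoc4 do not overlap each other, but overlapping gene models on the same strand, Gm44805 among them, join them into 1 locus. The summed counts of that locus, with Gm44805 included, rose by 1.58 (adjusted p = 1.59e-05). Lpl, lipoprotein lipase itself, rose by 0.91 (adjusted p = 0.00838), and Pltp, the phospholipid transfer protein, was not called at 0.02. Angptl8, which limits lipoprotein lipase, is made in the fed liver and is not in the target list. It rose by 3.29 on the log2 scale (SE 0.58, adjusted p = 0.00014), with 88.9 to 657 CPM in the libraries labelled LXRα-/- and 7.64 to 76.1 CPM in WT.

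Other targets moved both ways. Smpdl3a, a sterol-induced phosphodiesterase, fell by 1.37 on the log2 scale (SE 0.22, adjusted p = 5.54e-05), and Rnf145, a ubiquitin ligase of the sterol pathway, by 0.71 (adjusted p = 0.00415). Mylip, which degrades the LDL receptor, fell by 0.70 (adjusted p = 0.0227) and was not called under 5 of 21 alternatives. Cd36, a fatty acid receptor, fell by 1.59 (adjusted p = 0.0108), and Arl4c, a small GTPase, rose by 0.82 (adjusted p = 0.0199), and neither held its call without libraries 1 and 4. Nr0b2, the bile acid responsive repressor SHP, rose by 1.11 (adjusted p = 0.0141). Its target Cyp7a1, the enzyme that sets the pace of bile acid formation, had 3.77, 2.05, 3.69, 8.85 and 5.76 CPM in the libraries labelled LXRα-/- and 21.3, 11.2, 45.5, 51.6 and 10.5 CPM in WT. The groups did not overlap, and Cyp7a1 fell by 2.54 (SE 0.66, adjusted p = 0.00397). The steroid 7-alpha-hydroxylase Cyp7b1 fell by 2.58 (SE 0.45, adjusted p = 0.000126).

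Most genes of bile acid synthesis fell. Of 14 genes in that list 11 fell and 1 rose (median -1.10). Cyp2c70 (chromosome 19, 40153353 to 40187333), which makes the muricholic acids of mice, had 71.5, 35.2, 42.9, 58.9 and 52.5 CPM in the libraries labelled LXRα-/-, against 730, 657, 784, 713 and 688 CPM in WT. It fell by 3.78 on the log2 scale (SE 0.29, adjusted p = 4.34e-08), fell on HFD too (by 2.13, adjusted p = 0.000757), and kept its call with the mitochondrial covariate. Bile acid transport leaned the other way, with 7 rises and 1 fall among 16. The fall was Slc10a1, the sodium-dependent uptake carrier NTCP, by 2.61 (SE 0.28, adjusted p = 8.31e-07), and Slco1a4, an organic anion uptake carrier, rose by 2.38 (SE 0.43, adjusted p = 0.000203).

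Cholesterol and fat metabolism outside the target list was lower for most called genes. In cholesterol synthesis 15 of 24 genes fell and 1 rose (median -1.27), and in fatty acid oxidation and ketogenesis 13 of 25 fell and none rose (median -0.76). Hadhb, a subunit of the mitochondrial trifunctional protein of fatty acid oxidation, had 9.02, 5.91, 9.36, 6.1 and 7.26 CPM in the libraries labelled LXRα-/-, against 105, 82.3, 78, 66.6 and 82.1 CPM in WT. The groups did not overlap, and Hadhb fell by 3.46 on the log2 scale (SE 0.28, adjusted p = 5.39e-08). Among 23 lipoprotein genes 8 rose and 8 fell. Mttp, which loads lipid onto apolipoprotein B, fell by 2.22 (SE 0.19, adjusted p = 1.21e-07), and Scarb1, the HDL receptor, by 1.65 (SE 0.17, adjusted p = 7.55e-07).

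Genes of the citrate cycle, of glycolysis and gluconeogenesis and of the urea cycle were lower for most called members. In the citrate cycle list 18 of 25 genes fell and 2 rose (median -1.03). In glycolysis and gluconeogenesis 12 of 20 fell and 2 rose, and in the urea cycle and amino acid list 20 of 35 fell and 2 rose (median -0.88). Cps1, the first enzyme of the urea cycle, had 439 ± 122 CPM in the libraries labelled LXRα-/- and 1950 ± 517 CPM in WT (SD, n = 5 each; log2 fold change -2.15, adjusted p = 3.72e-06). Fbp1, which catalyses a committed step of gluconeogenesis, fell by 3.08 (SE 0.31, adjusted p = 4.85e-07), and the glycolytic kinase Pgk1 by 2.93 (adjusted p = 2.57e-07), the second with a processed copy, Pgk1-rs7, at 100% identity over 1255 bases. Sdhd, a membrane anchor of succinate dehydrogenase, fell by 2.57 (adjusted p = 2.19e-07).

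Respiratory chain subunits encoded in mitochondria rose, while those encoded in the nucleus moved both ways. All 13 proteins encoded by the mitochondrial genome rose, by 1.45 to 3.23 on the log2 scale (median 2.25). mt-Nd3, a complex I subunit, had 3510, 2390, 1800, 2390 and 3520 CPM in the libraries labelled LXRα-/-, against 305, 234, 322, 335 and 258 CPM in WT, and rose by 3.23 (SE 0.24, adjusted p = 2.47e-08). mt-Atp6, a membrane subunit of ATP synthase, rose by 2.83 (SE 0.26, adjusted p = 1.92e-07). Of 36 nuclear complex I subunits 11 rose and 5 fell, and of 16 nuclear ATP synthase subunits 4 rose and 7 fell. Atp5b, the catalytic beta subunit of ATP synthase, had 66.3, 75.9, 129, 146 and 106 CPM in the libraries labelled LXRα-/-, against 1060, 568, 956, 1120 and 1420 CPM in WT. It fell by 3.29 (SE 0.30, adjusted p = 2.18e-07), while Ndufa5, an accessory subunit of complex I, rose by 2.01 (SE 0.23, adjusted p = 1.52e-06). Short and long genes differed as well. Split into 10 bins by exon length, the bin of the shortest genes (median 456 bases) had a median log2 fold change of 0.54, that of the longest genes (11310 bases) had 0.27, and the 8 bins between had -0.05 to 0.09.

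Secreted plasma proteins included some of the largest falls. Of 24 acute phase proteins 21 fell and 1 rose (median -2.51), of 21 complement genes 11 fell and 1 rose, of 21 coagulation genes 14 fell and 3 rose, and of 20 plasma carriers and serpins 13 fell and 1 rose (median -1.20). Fga (chromosome 3, 83026076 to 83033627), the fibrinogen alpha chain, had 367, 216, 424, 389 and 532 CPM in the libraries labelled LXRα-/-, against 9470, 31000, 10400, 6110 and 5260 CPM in WT. It fell by 5.01 on the log2 scale (SE 0.53, adjusted p = 7.13e-07), and its log2 fold change was -4.35 without WT library 2. Steap4, a metalloreductase that rises in inflammation, fell by 3.70 (SE 0.37, adjusted p = 4.29e-07), clusterin (Clu) fell by 2.53 (adjusted p = 3.26e-06), and C1ra, a protease of the first complement component, fell by 1.39 (adjusted p = 1.83e-06). C1ra has a copy, C1rb, at 97.9% identity. Klkb1, plasma prekallikrein, was 1 of the 3 rises in coagulation, by 2.25 (SE 0.22, adjusted p = 3.14e-07), and by 1.36 when summed with the gene that overlaps it.

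The serum amyloid A genes and the metallothioneins fell far and varied widely between libraries. Saa2, an acute phase apolipoprotein of HDL, had 32.6, 5.36, 17.3, 12.8 and 129 CPM in the libraries labelled LXRα-/-, against 3610, 34900, 6040, 20700 and 862 CPM in WT. No library labelled LXRα-/- reached the lowest WT library, yet WT itself spanned 862 to 34900 CPM. Saa2 fell by 8.39 on the log2 scale (SE 1.24, adjusted p = 2.39e-05) and Saa1 fell by 6.90 (SE 1.10, adjusted p = 5.38e-05). Without library 5 labelled LXRα-/- the log2 fold changes were -9.60 for Saa2 and -8.17 for Saa1, and without WT library 2 they were -7.63 for Saa2 and -6.13 for Saa1. Saa1 and Saa2 share 96.7% of 2448 bases, so their counts may not be separate.

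Mt1 and Mt2, small proteins that bind zinc and copper, fell in the same libraries. Mt2 had 5.03, 2.02, 6.67, 2.08 and 21.6 CPM in the libraries labelled LXRα-/-, against 624, 624, 169, 1770 and 408 CPM in WT, and fell by 6.59 on the log2 scale (SE 0.76, adjusted p = 1.68e-06). The log2 fold change of Mt2 was -7.53 without library 5 labelled LXRα-/- and -5.93 without WT library 4, and it held its call with the mitochondrial covariate. Mt1 fell by 5.27 (SE 0.72, adjusted p = 1.03e-05), or by 5.86 without library 5 labelled LXRα-/-. In the wider list of metallothionein and iron genes 13 of 20 fell and 3 rose (median -1.12), and the zinc and iron importer Slc39a14 fell by 1.59 (SE 0.18, adjusted p = 1.28e-06). On HFD the medians for Mt2 were 2.28 CPM in libraries labelled LXRα-/- and 3.38 CPM in WT, so the WT chow libraries are the high ones among the 4 groups.

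The promoters of these 4 genes are shown because the genes are among the largest falls and form 2 pairs of well-known inducible genes. The 250 bases before the start are given 5′ to 3′ on the gene's strand, from RefSeq on GRCm38.p6, with motif matches in capitals. The metal response core was searched as TGCGCNC or TGCACNC, and the C/EBP motif as TTGCGCAA, TTNCGCAA or TTGCNCAA, on both strands. Mt2 is at chr8:94172368-94172617 (plus strand), Mt1 at chr8:94178839-94179088 (plus strand), Saa1 at chr7:46742981-46743230 (minus strand) and Saa2 at chr7:46751583-46751832 (plus strand).
Mt2: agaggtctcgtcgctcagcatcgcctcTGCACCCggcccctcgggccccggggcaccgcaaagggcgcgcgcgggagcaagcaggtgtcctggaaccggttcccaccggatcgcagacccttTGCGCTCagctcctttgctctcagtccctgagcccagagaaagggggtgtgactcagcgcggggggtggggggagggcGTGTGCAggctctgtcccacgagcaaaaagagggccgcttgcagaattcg
Mt1: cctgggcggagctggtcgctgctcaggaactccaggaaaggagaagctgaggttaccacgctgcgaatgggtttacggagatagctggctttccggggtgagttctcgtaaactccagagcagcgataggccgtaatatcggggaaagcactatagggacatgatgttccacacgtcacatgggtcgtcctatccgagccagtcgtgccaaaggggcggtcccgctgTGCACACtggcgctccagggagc
Saa1: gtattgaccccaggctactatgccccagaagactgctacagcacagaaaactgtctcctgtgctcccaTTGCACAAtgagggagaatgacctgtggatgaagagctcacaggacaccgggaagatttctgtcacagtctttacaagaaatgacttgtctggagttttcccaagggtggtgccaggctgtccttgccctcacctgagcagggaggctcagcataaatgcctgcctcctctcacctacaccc
Saa2: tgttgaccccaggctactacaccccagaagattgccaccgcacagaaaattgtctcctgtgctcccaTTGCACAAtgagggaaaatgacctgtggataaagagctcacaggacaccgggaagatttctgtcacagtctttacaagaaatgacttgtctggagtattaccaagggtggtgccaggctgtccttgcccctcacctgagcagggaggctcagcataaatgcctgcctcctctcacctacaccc

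Mt2 held 3 matches to the metal response core, which start 223, 128 and 50 bases before the RefSeq start, the last on the opposite strand. Mt1 held 1 at 23 bases. The deposited gene models start elsewhere, at 94172664 for Mt2, 94179082 for Mt1 and 46751790 for Saa2. The matches shown depend on the start used, and letters outside each window were not searched, so they do not count every core near a gene. The core stood in 7032 of 32851 promoters (21.4%) and in 6 of the 14 promoters found for the metallothionein and iron list. Saa1 and Saa2 each held TTGCACAA, at 182 and 183 bases, and their promoters matched at 95.6% of 248 bases. The C/EBP letters stood in 1020 promoters (3.1%) and in 9 of the 21 promoters found for acute phase genes. A STAT motif, TTCNNNGAA, stood in 7.02% of all promoters and 5 of the same 21. An NF-kB motif was also searched, and stood in 0.673% of all promoters and in 0 of the same 21. The metal response core stood in 4 of the 21 acute phase promoters, against 21.4% of all promoters. In the 14 promoters of the metallothionein and iron list, C/EBP stood in 1, STAT in 2 and NF-kB in 1. No match shown overlapped a match to another of these motifs. A match describes letters and not binding.

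Genes of protein folding, the lysosome and the proteasome were lower for most called members, and cytosolic ribosomal proteins moved both ways. In the list of ER translocation, folding and N-glycosylation 20 of 37 genes fell and 4 rose (median -0.91). Spcs1, a subunit of the signal peptidase that trims secreted proteins, had 2.98, 2.06, 2.49, 1.84 and 1.75 CPM in the libraries labelled LXRα-/-, against 31.2, 32.5, 25.1, 14.9 and 24 CPM in WT. It fell by 3.52 on the log2 scale (SE 0.32, adjusted p = 1.77e-07), and Xbp1, a transcription factor of the unfolded protein response, fell by 3.16 (SE 0.33, adjusted p = 7.27e-07). In the lysosome list 20 of 28 genes fell and none rose (median -0.91). The cysteine protease Ctsl had 25.9, 22.5, 36.7, 44.6 and 33 CPM in the libraries labelled LXRα-/-, against 411, 558, 434, 348 and 340 CPM in WT, and fell by 3.68 (SE 0.30, adjusted p = 7.11e-08). The lysosomal glucuronidase Gusb fell by 1.80 (SE 0.19, adjusted p = 7.65e-07). Among 31 proteasome subunits 16 fell and 3 rose, with Psmd13, a lid subunit, down by 3.66 (adjusted p = 1.77e-07), or by 2.01 when summed with the genes that overlap it. Among cytosolic ribosomal proteins there were 26 rises and 19 falls in 77 tested (median -0.03). Rpl21 rose by 2.86 (SE 0.21, adjusted p = 2.63e-08) and Rpl3 fell by 2.07 (SE 0.20, adjusted p = 3.73e-07), both with near-identical copies elsewhere that could share their reads.

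Most RNA processing genes and nuclear RNAs rose. Of 31 splicing factors 21 rose and 2 fell (median 0.99), of 18 snoRNA host genes 13 rose and 1 fell (median 1.04), and of 8 nuclear-retained long noncoding RNAs 5 rose and none fell (median 2.46). Clk1 (chromosome 1, 58410189 to 58424066), a kinase of SR splicing factors, had 109, 101, 88.4, 59.4 and 69.8 CPM in the libraries labelled LXRα-/-, against 17.3, 13.7, 19.4, 9.86 and 10.6 CPM in WT. It rose by 2.59 on the log2 scale (SE 0.22, adjusted p = 1.07e-07), and its paralog Clk4 by 2.46 (SE 0.26, adjusted p = 7.2e-07). Of the 31 splicing factors, 7, Clk1 and Clk4 among them, had all 10 libraries labelled LXRα-/- above all 10 WT libraries. Neat1, the scaffold RNA of paraspeckles, had 616, 320, 250, 339 and 248 CPM in the libraries labelled LXRα-/- and 73.3, 132, 70.9, 54.3 and 58.7 CPM in WT (log2 fold change 2.19, SE 0.31, adjusted p = 1.69e-05). Gm26917 (chromosome 17, 39843013 to 39846341), a gene model placed in the long noncoding RNA list, rose by 2.56 (adjusted p = 2.69e-06). Which RNA its counts came from was not tested. Snhg8, a snoRNA host, rose by 1.62 (SE 0.14, adjusted p = 1.45e-07). These groups moved with the share of mitochondrial and small RNA counts given above, and the part of those shares in them was not tested. With the mitochondrial covariate 1 splicing factor and 1 snoRNA host were called higher.

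Among proliferation genes falls outnumbered rises. Of 25 cell cycle and replication genes 12 fell and 2 rose (median -1.03). Pcna, the replication clamp, had 2.9, 3.95, 7.14, 6.21 and 7.01 CPM in the libraries labelled LXRα-/-, against 17.5, 12.5, 17.8, 15.3 and 16.9 CPM in WT, and fell by 1.56 on the log2 scale (SE 0.23, adjusted p = 2.59e-05), with a processed copy, Pcna-ps2, at 99.2% identity. Among regulators of hepatocyte genes, Ppara, the fatty acid sensor PPARα, fell by 2.24 (SE 0.27, adjusted p = 2.59e-06), in a list of 24 factors of which 6 rose and 5 fell. Igf1, a growth factor secreted by the liver, rose by 1.5 (SE 0.17, adjusted p = 1.78e-06).

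Markers of other cells moved by cell type. In these bulk samples fewer cells of a type and less RNA per cell cannot be told apart. Most Kupffer cell markers fell, with 13 of 20 lower and 2 higher (median -1.37). Their summed level was 260 to 463 CPM in the libraries labelled LXRα-/- and 483 to 845 CPM in WT. The HFD libraries of both labels held 223 to 471 CPM, so WT chow was the high group for this sum. On HFD 4 of the 20 markers fell. Cd5l (chromosome 3, 87357881 to 87371073), which resident macrophages secrete and which is an LXR target, had 1.15, 0.0635, 0, 0.194 and 0.18 CPM in the libraries labelled LXRα-/-, against 76.5, 86.9, 60.6, 115 and 53.9 CPM in WT. Cd5l fell by 7.99 on the log2 scale (SE 0.91, adjusted p = 1.68e-06), or by 9.50 without library 1, and fell by 7.16 on HFD. Fabp5, a fatty acid carrier of lipid-laden macrophages, fell by 5.98 (SE 0.65, adjusted p = 1.05e-06), while the integrin Itgax (CD11c) rose by 3.03 (SE 0.39, adjusted p = 5.66e-06), in a list of recruited macrophage markers with 5 rises and 3 falls among 18.

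Most B and plasma cell markers rose, with 14 of 20 higher and 1 lower (median 2.03). The 1 that fell was Sdc1 (log2 fold change -1.14, adjusted p = 0.000565). Their summed level overlapped, at 259 to 594 CPM in the libraries labelled LXRα-/- and 286 to 429 CPM in WT. A sum is set by its most abundant members, and Igkc was a small part of it in WT, so the overlap does not speak for each marker. Igkc, the immunoglobulin kappa constant region, had 159, 71.9, 259, 114 and 167 CPM in the libraries labelled LXRα-/-, against 10.5, 8.2, 15.1, 12.7 and 7.71 CPM in WT. It rose by 3.83 on the log2 scale (SE 0.54, adjusted p = 1.64e-05). On MHC class II, 8 of 12 genes rose and none fell, with H2-Ab1, a beta chain, higher by 1.5 (SE 0.30, adjusted p = 0.000468). T cell markers had 6 rises and 1 fall among 18 and NK and cytotoxic markers 6 rises among 10. Markers of tissues other than liver were summed too. Adipocyte markers came to 1050 to 3020 CPM in the libraries labelled LXRα-/- and 82.8 to 1830 CPM in WT, with 3 of 10 higher and 1 lower. The rises were Adrb3, Cfd and Cidea, and the fall was Slc2a4 (-3.85). Adrb3 and Cfd averaged 50.5 and 36.6 CPM in the libraries labelled LXRα-/-, a small part of that sum. Not called were Adipoq (-3.35), Retn (-1.92), Fabp4 (-0.93), Cidec (-0.32), Pparg (-0.09) and Car3 (1.07). Erythroid genes came to 521 to 2600 CPM in the libraries labelled LXRα-/- and 464 to 1220 CPM in WT. Exocrine pancreas markers came to 11 to 37.2 CPM and 11.3 to 28.2 CPM, with 9 of 13 at 0 in all chow libraries. Plasma carriers, the defining products of hepatocytes, summed to 53300 to 130000 CPM in the libraries labelled LXRα-/- and 136000 to 200000 CPM in WT. The part of these markers in the other results was not tested.

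**Figure D3:**
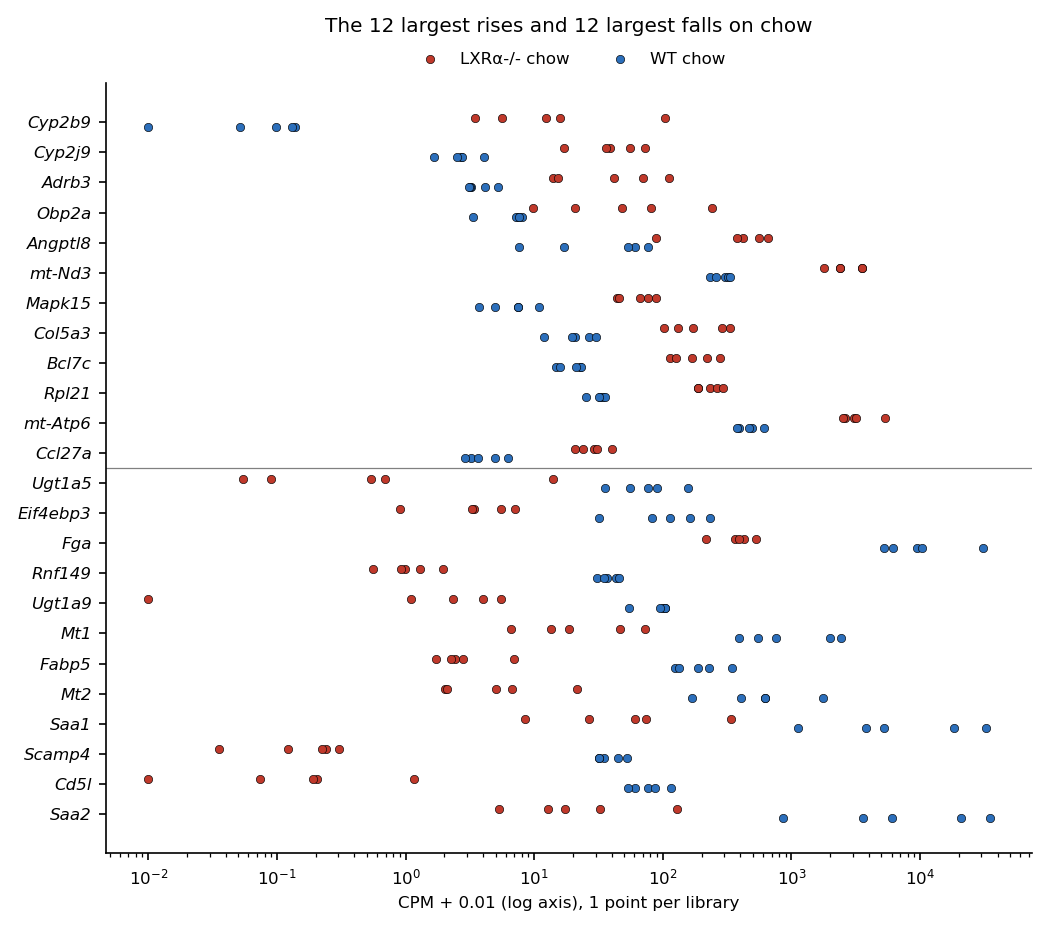
CPM plus 0.01 on a log axis, 1 point per library, for the 12 largest rises (above the line) and the 12 largest falls (below it) among called protein-coding genes of at least 5 FPKM, with the libraries labelled LXRα-/- on chow in red and WT chow in blue. The groups do not overlap for any of the 24 genes, as the choice required, and Ugt1a5 spans 0.0449 to 13.9 CPM within the libraries labelled LXRα-/-.

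The largest rises came from several families. Cyp2b9, a cytochrome P450 that is higher in female mouse liver, had 15.9, 3.43, 103, 12.3 and 5.59 CPM in the libraries labelled LXRα-/-, against 0.0879, 0, 0.128, 0.122 and 0.0419 CPM in WT. Cyp2b9 rose by 8.51 on the log2 scale (SE 1.52, adjusted p = 0.000168), or by 6.91 without library 3. Cyp2j9, a P450 that acts on arachidonic acid, rose by 4.01 (SE 0.42, adjusted p = 7.41e-07), with 17 to 73.1 CPM in the libraries labelled LXRα-/- and 1.64 to 4.09 CPM in WT. Adrb3, the adrenergic receptor known from fat cells, rose by 3.74 (SE 0.56, adjusted p = 2.73e-05), and Col5a3, a fibrillar collagen chain, by 3.23 (adjusted p = 9e-06). Obp2a, an odorant-binding lipocalin, rose by 3.57 (adjusted p = 0.00264), or by 2.58 without library 4. Mapk15, an atypical MAP kinase, Bcl7c, a subunit of chromatin remodelling complexes, and Ccl27a, a chemokine, rose by 3.23, 3.22 and 2.79. Cyp2u1, a P450 of fatty acids, rose by 1.78 (adjusted p = 1.81e-05). Of 20 major urinary proteins tested 2 rose, 5 fell and 13 were not called, so 35% were called against 43.4% of all genes. Mup3 rose by 1.03 and Mup22 fell by 2.92, and Mup22 has a copy, Mup18, at 99.4% identity.

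Some of the largest falls were smaller when the counts of overlapping gene models were summed. Rnf149, a ubiquitin ligase (chromosome 1, 39551296 to 39577405), had 0.55 to 1.93 CPM in the libraries labelled LXRα-/- and 30.5 to 45.3 CPM in WT. Gm15832, which overlaps it on the same strand, had 17 to 35 CPM in the libraries labelled LXRα-/- and 0.44 to 1.09 CPM in WT. Rnf149 fell by 5.06 on the log2 scale (adjusted p = 3.35e-05) and Gm15832 rose by 4.92 (adjusted p = 1.48e-07), while their summed counts fell by 0.56 (adjusted p = 0.0136). A sum of overlapping models also shrank the falls of Scamp4, a secretory carrier protein (7.79 alone, against 1.76 for the locus, adjusted p = 0.0355), and of Eif4ebp3, a repressor of translation (4.95 alone, against 1.29, adjusted p = 0.00109), and both loci were still called lower. Gm49322, which overlaps Scamp4, was not called (0.78, adjusted p = 0.415). The UDP-glucuronosyltransferases Ugt1a9 and Ugt1a5, which share their last exons, fell by 5.14 and 4.76 alone and by 1.08 as a locus. Both lost the call without libraries 1 and 4, and Ugt1a5 fell by 7.97 without library 3.

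Nnt, the mitochondrial transhydrogenase, had opposite calls for its gene IDs. The deposited table lists Nnt under 2 gene IDs with almost the same span on chromosome 13. ENSMUSG00000025453 (119335448 to 119408997) had 22.4, 24.4, 19.5, 16.1 and 17.6 CPM in the libraries labelled LXRα-/-, against 1.66, 1.34, 1.49, 1.39 and 1.62 CPM in WT. ENSMUSG00000116207 (119335528 to 119408952) had no count in any of the 5 libraries labelled LXRα-/-, against 29, 22.3, 24.6, 21 and 22.8 CPM in WT. The first ID was called higher, by 3.74 (adjusted p = 0.000277), and the second lower (adjusted p = 0.00503), but the sum of both was 20 ± 3.42 CPM in the libraries labelled LXRα-/- and 25.4 ± 3.21 CPM in WT libraries (SD, n = 5 each) and was not called (log2 fold change -0.32, adjusted p = 0.622). On HFD the second ID had no count in 9 of 10 libraries and 21 CPM in WT library 2. Nnt, Gm15832, Gm49322 and Txnrd1 were chosen after their values were seen.

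Txnrd1, the cytosolic thioredoxin reductase, took either a low or a high level. It had 5.8, 3.91, 4.32, 3.83 and 4.23 CPM in the libraries labelled LXRα-/-, against 103, 68.8, 91.7, 92.2 and 82 CPM in WT, and on HFD 3 libraries had 52.5, 64.8 and 53.3 CPM while 7 had 3.91 to 5.1 CPM. The share of loci called after summing was 7654 of 17682 (43.3%), close to the share of genes, and 141 loci held a gene called higher beside a gene called lower. Summing to loci was added after seeing the data.

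**Figure D4:**
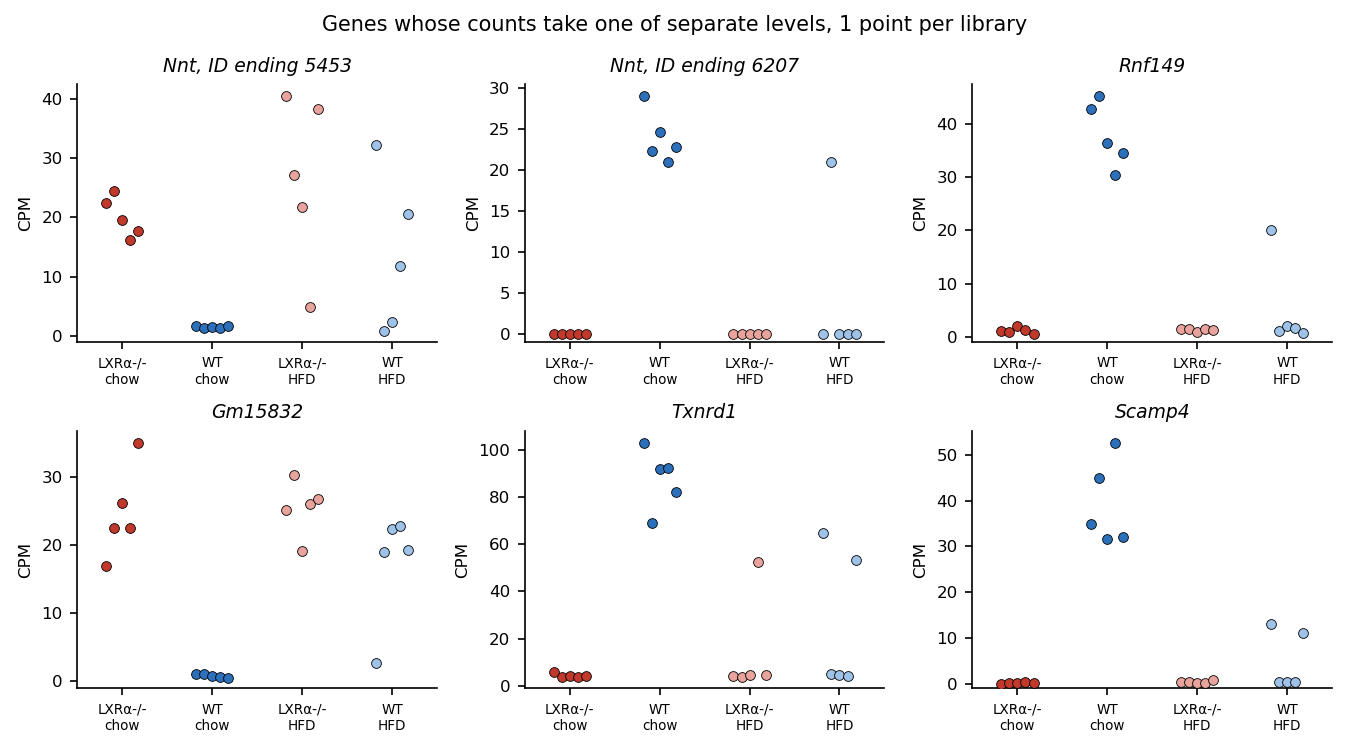
CPM per library (vertical axes) for the gene IDs described above, in libraries labelled LXRα-/- and WT on chow and then on HFD, 1 point per library. On chow the 2 IDs of Nnt change places between the groups, as do Rnf149 and Gm15832, and on HFD single libraries sit at the level of WT chow, such as WT library 2 at 21 CPM for the second Nnt ID.

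A smaller set of genes lay apart by label in all 20 libraries, although most of those described here were not called on HFD. Among the 8 with the smallest p of those apart in all 20 libraries, Ddb2, Pggt1b and Clk1 rose on chow and Tmed4, Pi4ka, Litaf, Pdlim1 and Cyp2c70 fell. Pdlim1 (chromosome 19, 40221173 to 40271842), a cytoskeletal adaptor, had 5.32, 4.85, 4.57, 4.92 and 6.33 CPM in the libraries labelled LXRα-/-, against 34.8, 32.1, 36, 45.7 and 45.8 CPM in WT, and fell by 2.90 on the log2 scale (SE 0.19, adjusted p = 9.07e-09). On HFD it fell by 0.84 (adjusted p = 0.0431). Pggt1b, a prenyltransferase subunit, rose by 2.82 (SE 0.24, adjusted p = 9.22e-08), and Litaf, an endosomal membrane protein, fell by 2.38 (SE 0.21, adjusted p = 1.45e-07). Pi4ka, a phosphatidylinositol kinase, fell by 1.56 (SE 0.13) and Tmed4, a cargo receptor of the early secretory path, by 1.49 (SE 0.13). On HFD these genes had 0.84 for Pggt1b (adjusted p = 0.104), -0.78 for Litaf (adjusted p = 0.0885), -0.46 for Pi4ka (adjusted p = 0.118) and -0.41 for Tmed4 (adjusted p = 0.139). Clk1 had 0.84 on HFD (adjusted p = 0.0833). The 8 genes were ranked by their p on chow, so their fold changes there are favoured by the choice.

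**Figure D5:**
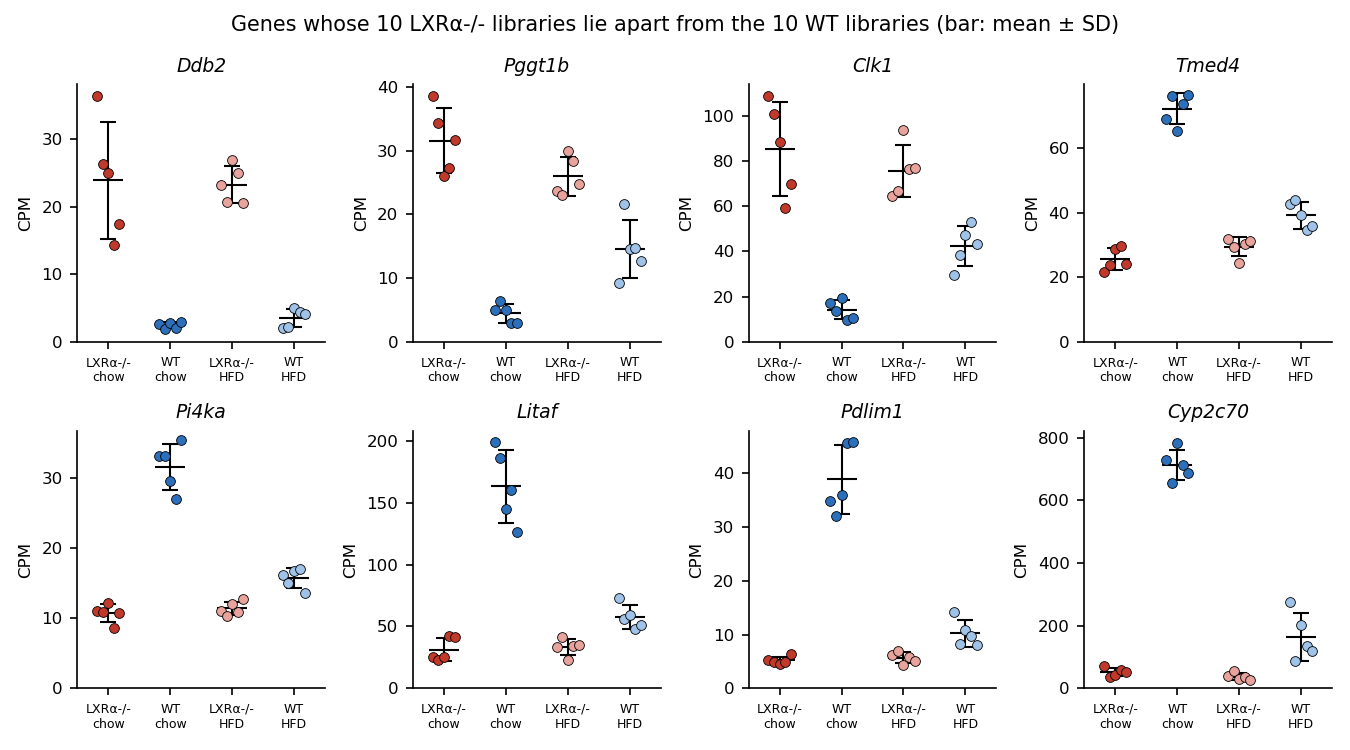
CPM (vertical axes, from 0) of the 8 genes with the smallest p among those whose 10 libraries labelled LXRα-/- lie apart from the 10 WT libraries, with 1 point per library and bars for the mean ± SD (n = 5 each). WT on HFD lies between WT chow and the libraries labelled LXRα-/- in most panels, and Ddb2 has nearly the same level on both diets, at 23.9 ± 8.61 CPM in labelled LXRα-/- chow and 2.45 ± 0.457 CPM in WT chow.

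Ddb2, a DNA damage sensor, lies close to Nr1h3 on chromosome 2. Ddb2 (91211572 to 91236960) had 36.4, 26.4, 25, 14.3 and 17.5 CPM in the libraries labelled LXRα-/-, against 2.58, 1.88, 2.78, 2.08 and 2.94 CPM in WT. Its gene model overlaps that of Acp2, and reads of the pair may be mixed. Ddb2 rose by 3.28 on the log2 scale on chow (SE 0.29, adjusted p = 1.18e-07) and by 2.72 on HFD (adjusted p = 9.72e-05). Within 2 Mb of Nr1h3, 45 genes were tested, of which 8 rose and 16 fell on chow and 2 rose and none fell on HFD. Arfgap2, a coat protein regulator next to it (91264974 to 91276931), fell by 1.59 on chow (SE 0.17, adjusted p = 9.53e-07) and had -0.17 on HFD. Of the 45 genes, Ddb2 was the 1 whose genotypes were apart in all 20 libraries.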

How the data were processed

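Paired-end libraries of poly(A)-selected RNA were made for Illumina sequencing, as the labels' protocols describe. The deposited table holds whole-number counts per gene and FPKM values, per the file headers, and a count of 0 is listed at an FPKM of 0.0001. Bowtie 0.12.2, HISAT2 2.0, StringTie 1.3.0 and the build mm8 are named, without role or order, per the submitters' processing notes. The sources used here do not give the counting program or how it treated strand. Positions follow the deposited file and fit GRCm38 gene models. The tests were fixed with counts in view as the first choice, so counts were used.

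Counts were filtered with filterByExpr, scaled by TMM and tested with edgeR 4.0.16 in R 4.3.3, with 1 mean per group over all 20 libraries (chow libraries of 81413135 to 108889938 counts). P-values were two-sided and adjusted over the 18905 genes tested by Benjamini-Hochberg, at a threshold of 0.05. A gene that passed is called, and "rose" and "fell" are used of called genes. CPM used TMM-scaled totals, and the SE was derived from the F statistic. Nr1h3 and the shares of counts were compared by exact permutation over 252 arrangements. DESeq2 1.42.0 and limma 3.58.1 served as alternatives.

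The genes described are Nr1h3, Nr1h2 and sex markers, the 12 largest rises and 12 largest falls of at least 5 FPKM with groups that do not overlap, up to 2 called members with the smallest p of each list, the 8 genes with the smallest p among those apart in all 20 libraries, and the tested LXR targets. The members and the 64 gene lists were chosen with earlier results of these data known. A few items that these choices name are not reported here. Of the 106 genes, 32 have another gene at 90% identity or more, and counts of such genes, and of overlapping or antisense genes, are uncertain. Counts were also simulated with 18211 genes in the fit, of which 200 were changed. There the test recovered 0% of 1.5-fold, 9.68% of 2-fold and 64.5% of 4-fold changes, with 1 false call among 47. The data had 8197 calls, and with so few genes changed in the simulation its adjusted p was harder to pass. In the data 2475 called genes were under 2-fold, so the simulated shares do not give the power of the comparison above.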

Additional observations from a re-analysis of the deposited data

Results flagged for a closer look

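The test of the difference between the chow and HFD contrasts was called for 3661 genes, 19.4% of those tested, and among the 106 genes described above for 76. Many of the 106 were chosen by their result on chow, which is part of that difference. The count of 76 is therefore favoured by the choice and does not mark these genes as more dependent on diet. The values below are that difference, the log2 fold change of labelled LXRα-/- over WT on chow minus the same on HFD, so a positive value means a more positive fold change on chow. WT chow is the group that lies outside the other 15 libraries for most of them, and its mitochondrial share of counts differs from all other groups, a part that was not tested. For plasma proteins, metallothioneins and immune genes the difference was -8.08 for Saa2, -7.07 for Saa1, -3.91 for Fga, -3.98 for Steap4 and -1.14 for C1ra. It was -1.81 for Clu, -5.77 for Mt2, -4.28 for Mt1, -1.45 for Slc39a14 and -3.45 for Fabp5. It was 1.89 for Klkb1, 5.37 for Igkc, 2.05 for H2-Ab1 and 2.78 for Ccl27a. For lipid and bile acid genes the difference was -1.27 for Rxra, 0.88 for Abca7, 3.32 for Angptl8 and 1.61 for Apoc1. It was 2.39 for Apoc2, 1.96 for Apoc4, -1.96 for Cd36, -2.68 for Cyp7a1 and -2.43 for Cyp7b1. It was -1.65 for Cyp2c70, 1.77 for Lpl, 1.14 for Mlxipl, 1.49 for Nr0b2 and 2.58 for Pltp. It was -1.22 for Smpdl3a, -1.77 for Mttp, -0.81 for Scarb1 and -2.93 for Hadhb. It was -2.29 for Slc10a1. For energy and hepatocyte genes the difference was -1.83 for Cps1, -2.89 for Fbp1, -2.15 for Pgk1, -2.06 for Sdhd and -2.68 for Atp5b. It was 2.06 for Ndufa5, 2.95 for mt-Nd3, 2.46 for mt-Atp6, 1.40 for Igf1 and -2.61 for Ppara. It was -2.47 for Mup22, 1.13 for Mup3, 5.62 for Cyp2b9, 2.42 for Cyp2j9 and 1.44 for Cyp2u1. It was -6.21 for Ugt1a5. For protein and RNA handling genes the difference was 2.69 for Rpl21, -1.51 for Rpl3, -2.78 for Psmd13, -2.82 for Xbp1 and -3.25 for Spcs1. It was -2.85 for Ctsl, -1.78 for Gusb, 1.84 for Neat1, 2.63 for Gm26917 and 1.55 for Snhg8. It was 1.75 for Clk1, 1.77 for Clk4, -1.59 for Pcna, -1.08 for Tmed4 and -3.29 for Eif4ebp3. It was -4.29 for Scamp4 and -3.05 for Rnf149. For the other genes the difference was 2.07 for Ddx3y, 2.58 for Adrb3, 3.08 for Mapk15, 2.69 for Col5a3 and 3.15 for Bcl7c. It was -2.06 for Pdlim1, -1.10 for Pi4ka, 1.98 for Pggt1b, -1.60 for Litaf and -1.42 for Arfgap2.

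Single libraries stood far from the other 4 of their group for 20 of 216 groups of 5 values looked at (9.26%). The rule flags about 1 in 20 for independent values with a normal spread. CPM values are skewed and related genes such as Saa1 and Saa2 share flags, so the 9.26% has no exact share to be set against. Libraries 1 and 5 labelled LXRα-/- carried 4 of these each, library 3 carried 3, and libraries 2 and 4 none. In the libraries labelled LXRα-/-, library 1 had the high value for mt-Atp6 (5300 CPM), Cd5l (1.15 CPM), Mylip (3.62 CPM) and Neat1 (616 CPM). Library 3 was high for Cyp2b9 (103 CPM), Ugt1a5 (13.9 CPM) and Elovl5 (230 CPM). Library 5 was high for Saa2 (129 CPM), Saa1 (339 CPM), Mt2 (21.6 CPM) and Fabp5 (7.01 CPM), 4 genes that were much higher in WT. Among WT libraries, library 1 was high for Xist (0.0879 CPM) and Lpl (11.2 CPM) and low for Obp2a (3.33 CPM). WT library 2 was high for Fga (31000 CPM) and Neat1 (132 CPM) and low for Ugt1a9 (54.4 CPM), WT library 4 was high for Mt2 (1770 CPM) and low for Smpdl3a (12.3 CPM), and WT library 5 was high for Pnpla3 (3.82 CPM).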

How the results depend on the processing

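The counts of called genes stayed within 1.5 times of 8197 under every alternative run but the mitochondrial covariate. They were 8202 with median-of-ratios factors, 7903 with library totals, 8268 with upper quartile factors, 8153 without mitochondrial genes, 7681 with no filter, 7704 with at least 50 counts, 6952 in the 10 chow libraries alone, 8900 with DESeq2 and 8384 with limma on log2(FPKM + 1). With upper quartile factors the median of all genes was 0.24 in place of 0.08, and 5024 genes rose and 3244 fell. With each library's mitochondrial share held as a covariate, the calls came to 182, 64 higher and 118 lower, and 76 for the interaction. Of the 92 called genes described above 16 kept the call in that fit and 4 changed sign (Abca7, Apoc2, Gramd1b and Nr0b2). Leaving out 1 chow library gave 7400 to 8119 calls, 3770 to 4205 higher and 3617 to 3914 lower, and 3210 to 3712 for the interaction. The Nr1h3 difference ranged over 4.25 to 18.8 FPKM and passed the threshold only without library 4 labelled LXRα-/-, and it was 22.5 without libraries 1 and 4 (exact permutation p = 0.0179, added after seeing the data). The mitochondrial difference ranged over 15.4 to 18.2 percentage points. With the replicate number as a block 7818 genes were called, and the correlations between same-numbered libraries were -0.04 to 0.20. Such correlations cannot show whether libraries of the same number shared a batch or a pairing, which the labels do not state. Over the 21 alternatives with gene values, 83 of the 92 genes kept call and sign and none reversed. Those that changed were Abca1, Abcg5, Acaca, Arl4c, Cd36, Eif2s3y, Elovl5, Kdm5d, Mylip, Nr1h2, Scd1, Srebf1, Ugt1a5, Ugt1a9, Uty and Xist. The cause was not tested. Scarce genes such as Pnpla3 and Xist are limited by depth.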

Other observations

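Markers of sex were read as a further description of the libraries. Ddx3y, a helicase of the Y chromosome, had 35.1, 42.6, 25.4, 34.8 and 10.9 CPM in the libraries labelled LXRα-/-, against 9.44, 6.49, 7.87, 2.91 and 2.41 CPM in WT, and rose by 2.35 on the log2 scale (SE 0.37, edgeR adjusted p = 5.25e-05). Its neighbours on that chromosome moved less. Uty rose by 1.04 (adjusted p = 0.0216), a call lost under several alternatives, and Eif2s3y and Kdm5d had 0.83 and 0.78 (adjusted p = 0.0699 and 0.0909). Xist, the RNA of the inactive X chromosome, was at most 0.348 CPM in any library labelled LXRα-/- and at most 0.0879 CPM in any WT library, and every chow library held counts of Ddx3y. Of 19 tested genes known as female-biased in liver 5 rose and 3 fell, and of 28 male-biased genes 4 rose and 6 fell, against 22.3% and 21% of all genes.

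In the circadian clock list 5 of 21 genes rose and 5 fell on chow (median log2 fold change -0.24), and the test of the difference between diets was called for 10 of them. In the matrix and stellate cell list 9 of 24 genes fell and 2 rose on chow. Its summed level was 530 to 776 CPM in the libraries labelled LXRα-/- and 1890 to 3630 CPM in WT, with 549 to 911 CPM on HFD. Much of that sum was 1 member, the fibronectin gene Fn1, at 285 to 435 CPM in the libraries labelled LXRα-/- and 1370 to 3160 CPM in WT. The cell type behind the Fn1 counts was not tested. Sinusoidal endothelial markers summed to 274 to 395 CPM in the libraries labelled LXRα-/- and 274 to 401 CPM in WT, with 2 rises and 4 falls among 22.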
